A study of Mus musculus with 16 samples.

Results

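Chromatin accessibility was examined at 8 genes that encode AP-1 proteins: Fos, Fosb, Fosl1, Fosl2, Jun, Junb, Jund and Atf3. They were taken by name from the 21938 protein-coding genes of the annotation, and their loci were defined as the gene body plus 50 kb on each side. In peak lists cut to equal length, 67 of 26213 merged regions lay in these 8 windows, and in the lists as deposited 129 of 80290 did. The measurements were ATAC-seq, in which a transposase inserts adapters into open DNA, in C2C12 iMyoD1, a population of the mouse myoblast line C2C12. All cells, controls included, carried endogenous Myod1 and integrated copies of a doxycycline-inducible Halo-MyoD1 driven by a TRE3G promoter. The population was polyclonal, and only a share of nuclei expresses the transgene when doxycycline (dox) is added. There were 4 groups of 4 libraries. Cells in growth medium received vehicle (GM no dox) or dox (GM +dox) for 24 h, and cells under 24 h of serum withdrawal received vehicle (DM no dox) or dox (DM +dox) for the same time. Seeding was at 75000 cells a well for GM and 300000 for DM, so medium and density cannot be told apart. The first replicate of both DM groups was left out, as the study's methods did. This kept 14 libraries.

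AP-1 is a dimer of basic leucine zipper proteins. FOS proteins cannot pair with each other and bind DNA as partners of JUN proteins, which also form dimers among themselves, and ATF3 belongs to a related branch that can pair with JUN. The dimers bind TGACTCA or, for some pairs, the cyclic AMP response element TGACGTCA. Several of these genes are immediate early genes, transcribed within minutes of serum or stress, and in myoblasts JUN is known as a counterpart of MyoD1 that can bind it and restrain differentiation. MyoD1 binds E-boxes, among which CAGCTG is a preferred form.

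The kept lists held 14710 to 58587 peaks, called by the authors in each library separately, and the recovered genome-wide background was 0.339 to 1.13 fragments per base. The left-out libraries held 1287 (DM no dox) and 14236 (DM +dox) peaks at 0.398 and 0.167 fragments per base. Because the kept lists differed in length, equal-length lists were made from the 14710 peaks of lowest p in each library, and ranks count from 1 at the lowest p. Among markers, Myod1 had a start-site peak in 14 of 14 full lists, Cdh2 in 14, Des in 13, Cdh15 in 10, Myf5 in 6 and Vcam1 in 4. The Myod1 peaks lay in coding exons, which the transgene also carries. Of markers for other cell types, Cd3e, Ptprc, Alb and Cdh5 had none and Pecam1 had 8. In bulk libraries, fewer cells with an open site and a less open site per cell cannot be told apart.

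Selected regions are shown as 300 bases around the strongest summit, read from GRCm38 (mm10) on the strand of the gene, with motifs in capitals. Fosb −50.4 kb and Jun −46.3 kb, which were also called in a comparison below, are not shown. A region is named by its gene and the distance of its strongest summit from the outermost annotated 5′ end. Both strands were searched for the AP-1 motif TGACTCA and the cyclic AMP response element TGACGTCA. The E-box CAGCTG, the TEAD motif CATTCC and the CArG box bound by serum response factor were searched for as well. Fos −0.3 kb is the Fos promoter, Fos −1.7 kb, Junb −2.5 kb and Atf3 +1.7 kb were present in all equal-length lists of one group and in none of another, and Junb −7.0 kb and Jund +11.7 kb differed between media by fragments over background. Fosb −6.8 kb holds a pair of AP-1 motifs beside an AP-1 gene.
Fos −0.3 kb, chr12:85473437-85473736, plus strand: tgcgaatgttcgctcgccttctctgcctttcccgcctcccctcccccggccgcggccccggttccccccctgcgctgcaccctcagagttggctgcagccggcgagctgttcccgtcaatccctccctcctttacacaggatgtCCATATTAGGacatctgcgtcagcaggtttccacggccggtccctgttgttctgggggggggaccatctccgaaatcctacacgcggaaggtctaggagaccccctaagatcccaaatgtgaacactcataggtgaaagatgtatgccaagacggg
Fos −1.7 kb, chr12:85472049-85472348, plus strand: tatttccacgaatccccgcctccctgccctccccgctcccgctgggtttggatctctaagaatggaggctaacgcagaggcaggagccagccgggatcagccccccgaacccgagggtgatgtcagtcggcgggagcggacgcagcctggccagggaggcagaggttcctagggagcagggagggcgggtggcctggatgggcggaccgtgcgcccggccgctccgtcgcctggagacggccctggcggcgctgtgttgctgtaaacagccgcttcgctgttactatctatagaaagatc
Fosb −6.8 kb, chr7:19316744-19317043, minus strand: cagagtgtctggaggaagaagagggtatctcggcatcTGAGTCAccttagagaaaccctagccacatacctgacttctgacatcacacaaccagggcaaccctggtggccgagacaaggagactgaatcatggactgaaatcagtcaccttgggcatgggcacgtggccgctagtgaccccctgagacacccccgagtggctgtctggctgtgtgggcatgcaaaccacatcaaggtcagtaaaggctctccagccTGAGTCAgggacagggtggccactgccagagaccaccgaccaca
Junb −2.5 kb, chr8:84981101-84981400, minus strand: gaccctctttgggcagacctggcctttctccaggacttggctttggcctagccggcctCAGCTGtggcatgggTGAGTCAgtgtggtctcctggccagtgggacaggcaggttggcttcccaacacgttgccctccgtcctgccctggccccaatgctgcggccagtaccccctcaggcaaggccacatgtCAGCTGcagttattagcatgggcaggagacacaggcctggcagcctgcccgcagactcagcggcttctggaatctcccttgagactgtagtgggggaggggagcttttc
Junb −7.0 kb, chr8:84985555-84985854, minus strand: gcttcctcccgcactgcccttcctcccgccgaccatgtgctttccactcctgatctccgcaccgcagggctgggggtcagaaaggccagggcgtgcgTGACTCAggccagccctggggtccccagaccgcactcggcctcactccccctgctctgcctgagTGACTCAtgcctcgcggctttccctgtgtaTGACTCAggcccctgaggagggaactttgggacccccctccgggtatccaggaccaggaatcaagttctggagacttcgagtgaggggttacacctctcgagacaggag
Jund +11.7 kb, chr8:70710479-70710778, plus strand: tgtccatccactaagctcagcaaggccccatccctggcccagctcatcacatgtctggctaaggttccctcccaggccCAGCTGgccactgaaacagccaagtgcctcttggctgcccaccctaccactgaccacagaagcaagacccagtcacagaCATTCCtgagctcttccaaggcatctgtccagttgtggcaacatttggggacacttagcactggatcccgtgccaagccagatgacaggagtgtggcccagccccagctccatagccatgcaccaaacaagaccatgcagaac
Atf3 +1.7 kb, chr1:191216180-191216479, minus strand: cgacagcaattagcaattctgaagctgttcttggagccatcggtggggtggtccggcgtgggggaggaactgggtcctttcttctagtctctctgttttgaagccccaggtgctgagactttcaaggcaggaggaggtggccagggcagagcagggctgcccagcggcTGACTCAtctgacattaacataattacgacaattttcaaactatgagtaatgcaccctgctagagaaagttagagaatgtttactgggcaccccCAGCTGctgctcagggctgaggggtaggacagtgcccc
TGAGTCA is TGACTCA on the other strand. The capitals mark the CArG box in Fos −0.3 kb, TGACTCA in Fosb −6.8 kb and Junb −7.0 kb, CAGCTG and CATTCC in Jund +11.7 kb, and TGACTCA and CAGCTG in Junb −2.5 kb and Atf3 +1.7 kb. The sequence at Fos −1.7 kb held none of the motifs searched in this window.

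Start sites were examined first. Fosl2, Jun, Junb, Jund and Atf3 had a peak with its summit within 1 kb of an annotated start in all 14 equal-length lists. Fosb had one in 12, Fos in 8 and Fosl1 in 1. Of all protein-coding genes, 18.4% had a start-site peak in every equal-length list and 55.1% in none. In the full lists Fos had one in 13 libraries, Fosb in 12 and Fosl1 in 11.

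The FOS genes differed among themselves at the start. For Fos (chr12:85473890-85477273, plus strand), the founding immediate early gene, the start-site peak ranked 15502, 16053 and 7263 in GM no dox replicates 2 to 4, with no peak in replicate 1. It ranked 23092, 13198, 19538 and 12018 in GM +dox, 6737, 16390 and 11334 in DM no dox and 12218, 11516 and 11370 in DM +dox. The peak thus sat on both sides of the cut, and every group's range overlapped every other's. In equal-length lists it was present in 1 of 4 and 2 of 4 libraries of GM without and with dox, and in 2 of 3 and 3 of 3 of DM. Counts of libraries below follow that order of groups.

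Fosb (chr7:19302696-19310051, minus strand), another serum-responsive FOS gene, ranked 13105, 10813 and 7506 in GM no dox replicates 2 to 4, and 10335, 11859, 11777 and 7747 in GM +dox. In DM no dox it ranked 8896 and 6901 in replicates 3 and 4, and in DM +dox 10393, 5685 and 8650. In replicate 1 of GM no dox and replicate 2 of DM no dox the peak of the same region, Fosb +1.4 kb, had its summit beyond 1 kb of a start, at ranks 13819 and 7162. The region itself was thus open in all 14 equal-length lists, and the ranges overlapped. Fosl1 (chr19:5447547-5455946, plus strand), which encodes FRA1, was weak throughout: where present, its start-site peak ranked between 10450 and 29533, and only DM no dox replicate 3 placed it inside the cut. Fosl2 (chr5:32135801-32157842, plus strand), which encodes FRA2, ranked between 2586 and 9760 in all 14 libraries.

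Among the JUN genes, the strongest start-site peaks of Jun and Junb ranked from 230 to 4835. Jun (chr4:95049034-95052222, minus strand), the serum- and stress-induced founder of the family, ranked 3166, 1139, 1074 and 1669 in GM no dox, 4835, 759, 1106 and 4092 in GM +dox, 1085, 4436 and 2227 in DM no dox and 1078, 1469 and 3213 in DM +dox, with overlapping groups. Junb (chr8:84974484-84978718, minus strand), often an antagonist of JUN in proliferation, ranked 3601, 2233, 1256 and 2157 in GM no dox and 2593, 1524, 1281 and 589 in GM +dox. It ranked 230, 1087 and 567 in DM no dox and 1152, 539 and 630 in DM +dox. Every kept DM library ranked this peak higher than every GM no dox library did, whereas the DM +dox and GM +dox ranks overlapped. The peak lay at Junb +2.2 kb, an inner annotated start. At Junb −0.1 kb, by the outermost 5′ end, the ranks were 8550, 6329, 3595 and 3170 in GM no dox. There they were 6991, 6020 and 4006 in DM no dox and 3567, 5852 and 3665 in DM +dox, so the groups overlapped.

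Jund (chr8:70698949-70700616, plus strand), the JUN gene least dependent on serum, ranked between 2654 and 14580, and GM +dox replicate 1 held the weakest value. Atf3 (chr1:191170296-191218039, minus strand), a stress-induced gene, had its peak at an inner annotated start 34.5 kb inside the gene and not at the outermost 5′ end. It ranked 8068, 2456, 4105 and 5095 in GM no dox, 14509, 3473, 2069 and 2933 in GM +dox, 1907, 3108 and 4066 in DM no dox and 2018, 1451 and 2529 in DM +dox. The groups overlapped in each of the 4 comparisons.

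**Figure D1:**
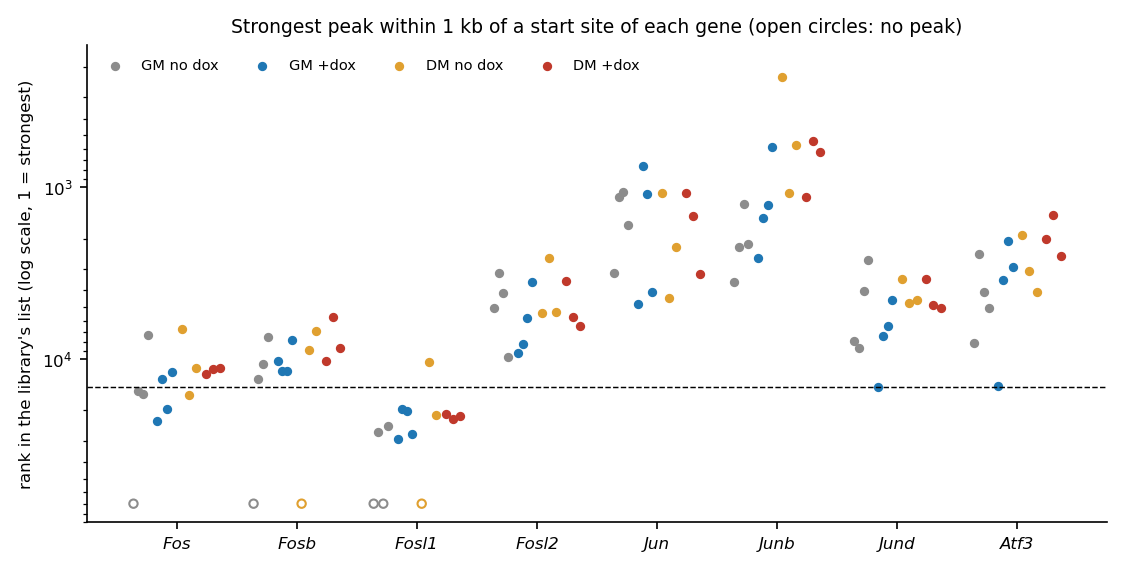
Rank of the start-site peak of each gene in each kept library, 1 point a library and 1 colour a group, on a log axis with strong peaks at the top and the equal-length cut at 14710 as a line. Jun, Junb, Fosl2, Jund and Atf3 sit above the line in all 14 libraries, Fos straddles it, and Fosl1 lies below it in all but 1 library.

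The windows as a whole were rich in peaks. In equal-length lists the mean over 14 libraries was 12.4 peaks for Junb, which exceeded 99.9% of protein-coding genes. It was 6.43 for Fosl1 and 5.57 for Jund, and 4.5 for both Fos and Fosb. Jun had 4.36, Atf3 4.0 and Fosl2 2.5, against a median of 1.29 over all genes. The windows of Fos, Fosl2 and Jun held no other protein-coding gene, whereas those of Junb, Fosl1, Fosb and Jund held 9, 11, 7 and 5, and that of Atf3 held 1. Of the 67 regions, 10 lay at a member's own start, 2 in its gene body, 20 at a start of another gene and 35 elsewhere. A peak was found in every library at 21 of the 67 (31.3%), against 23.1% of all regions.

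Peaks per window were compared next, to ask whether dox or serum withdrawal changed how much of a locus was open. In equal-length lists no member's groups were apart in any of the 4 comparisons. Among all genes tested, 0.224% were apart and higher with dox in GM and 0.205% lower, 1.82% higher and 0.975% lower with dox in DM, 1.47% higher and 1.43% lower with differentiation without dox, and 1.88% higher and 1.39% lower with differentiation with dox. The exact two-sided permutation test can reach p = 0.0286 with 4 against 4 or 4 against 3 libraries and only p = 0.1 with 3 against 3.

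The lowest p among members was at Junb in differentiation with dox, where GM +dox held 15, 12, 14 and 16 peaks and DM +dox 11, 11 and 12. The groups met at 12, and the means of 14.25 and 11.33 differed by −2.92 (exact permutation p = 0.0857, adjusted p = 1). Without dox the Junb window held 13, 13, 10 and 14 peaks in GM and 11, 11 and 10 in DM, which overlapped.

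At Fos, GM no dox held 5, 5, 4 and 6 peaks and DM no dox 4, 3 and 4, a difference of −1.33 (exact permutation p = 0.114, adjusted p = 1) with overlap at 4. GM +dox held 5, 4, 4 and 5 and DM +dox 4, 5 and 5. At Atf3, GM no dox held 4, 4, 3 and 2, GM +dox 5, 6, 2 and 3, DM no dox 5, 5 and 4, and DM +dox 6, 4 and 3. At Atf3 the groups overlapped in all 4 comparisons.

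Libraries of the same replicate number were also compared as pairs, a pairing that the labels do not state. A window counts here if every pair moves one way, a looser rule than groups that are apart. In equal-length lists differentiation without dox was higher in 3 of 3 pairs at Fosl1 (mean difference 1.0 peaks) and Atf3 (1.67), against 3.82% of all genes. It was lower in 3 of 3 pairs at Fos (−1.33) and Jun (−1.33), against 4.14%. With dox Junb was lower in 3 of 3 pairs (−2.67), against 3% of all genes. The exact paired permutation test cannot go below p = 0.25 with 3 pairs. Leaving out a library in turn without pairing also moved the counts of members apart, from 0 to at most 2 of 8. Where 2 were apart, the share of all genes was 5.02% higher with dox in DM and 2.05% lower with differentiation without dox.

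The picture for dox in DM depended on list length. In full lists, Fos had 4, 5 and 7 peaks in DM no dox and 12, 11 and 10 in DM +dox. Fosb had 6, 8 and 14 against 16, 18 and 18, and Atf3 had 6, 6 and 8 against 16, 13 and 13. In all 3 windows the groups were apart, each at an exact permutation p of 0.1, the lowest 3 against 3 libraries allow (adjusted p = 0.345). However, 29% of all genes were apart in this direction in full lists, and the DM +dox lists were the longer ones, with 46241 to 51340 peaks against 23690 to 40599. The median difference was 4.67 peaks over the 8 members and 1.67 over all genes, and in equal-length lists it was 0.5 and 0. These differences were not scaled to the number of peaks in a window. In full lists the members' windows held means of 4.86 (Fosl2) to 17.4 (Junb) peaks, against a median of 3.5 over all genes. At equal length Fosb had 3, 4 and 4 peaks in DM no dox and 4, 5 and 3 in DM +dox, and no member was apart.

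**Figure D2:**
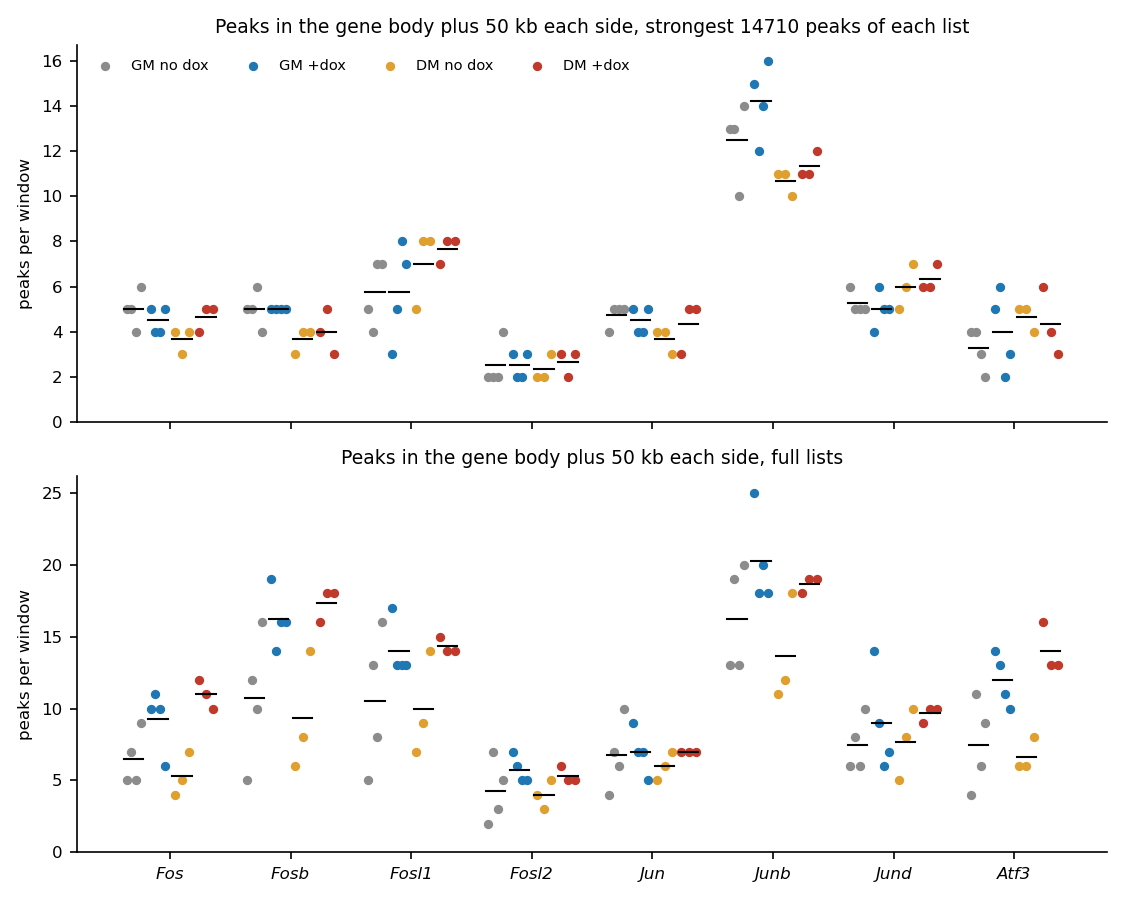
Number of peaks in the gene body plus 50 kb each side for the 8 genes, 1 point a library coloured by group, in equal-length lists and in full lists. With dox in DM the groups of Fos, Fosb and Atf3 separate in full lists and overlap in equal-length lists.

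Single regions were then asked about in a yes or no form: a peak in all libraries of one group and in none of the other. In equal-length lists dox in GM gave 0 such regions among the 60 in the members' windows (0.163% of all regions higher and 0.124% lower). Dox in DM gave 1 of 57, higher (0.824% of all regions higher, 0.787% lower). Differentiation without dox gave 1 higher and 1 lower of 65 (0.984% and 1.04% of all regions), and differentiation with dox gave 2 lower of 60 (1.11% higher and 1.1% lower of all regions). These counts have no test. Leaving out a library makes all or none easier to meet, so a rise does not show that a call rested on that library. No member count fell below its value above when a library was left out. Over all regions the higher count with dox in DM was 177. It became 344 when replicate 2 of the vehicle group was dropped and 395 when that of the dox group was. The members' count with dox in DM was 2 without replicate 2 of either DM group. Without dox the lower count was 3 without replicate 3 of GM no dox or replicate 2 of DM no dox, and the higher count was 2 without DM no dox replicate 2.

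Fos −1.7 kb (chr12:85472072-85472598, between genes) was the region with dox in DM and also the lower one with differentiation without dox. Its fold enrichment over local background was 7.58, 10.5, 6.62 and 9.01 in GM no dox, 13.7, 10.2, 9.59 and 9.88 in GM +dox and 11.9, 10.1 and 9.51 in DM +dox. No DM no dox library had it at equal length. Both left-out libraries lacked it as well, so with DM +dox replicate 1 included the region was not all or none with dox in DM. In full lists DM no dox replicates 3 and 4 had it at 6.23 and 7.57 fold, at ranks 16426 and 18011, just outside the cut, and replicate 2 had no peak. In the other groups its rank was 2699, 12143, 11515 and 11494 in GM no dox, 6081, 13180, 11534 and 7933 in GM +dox and 11716, 12256 and 12544 in DM +dox. The neighbouring Fos start-site peak did not share this pattern, as it was present in 2 of 3 equal-length DM no dox lists.

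The other Fos regions were distal. Fos −18.5 kb and Fos +23.9 kb had a peak in every library, at ranks 407 to 9874 and 160 to 7303, and each was stronger than the Fos start-site peak in all of them. Fos +45.9 kb was found in 3, 1, 0 and 0 libraries, which was short of all or none.

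At Fosb, the region at −50.4 kb (chr7:19359470-19361474) lay in an intron of Ppp1r13l and within 1 kb of annotated starts of Cd3eap and Ppp1r13l. It ranked 8075, 7685, 14400 and 9414 in GM no dox and 6530, 3283, 5058 and 8913 in GM +dox. In DM no dox it ranked 15684, 16782 and 14031 and in DM +dox 15451, 18386 and 18155. It was thus inside the cut in all 8 GM libraries and in 1 of 6 DM libraries, but was a peak in all 14 full lists. The left-out DM +dox replicate 1 had it at rank 11136 and 4.79 fold, inside the cut, so with that library it was no longer absent from DM +dox. Fosb −6.8 kb, with its pair of TGACTCA motifs, was present in 4, 4, 2 and 2 equal-length lists and in all 14 full lists, at ranks 1654 to 19937.

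Fosl1 and Fosl2 had no all-or-none region. Fosl1 −2.4 kb, between genes, ranked 1063 to 4489 in all 14 libraries and was far stronger than the Fosl1 start itself. Fosl2 +56.5 kb ranked 2290 to 7009 in 12 libraries and was missing from GM no dox replicates 1 and 3, in full lists as well.

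At Junb, the region at −2.5 kb (chr8:84981040-84981445, between genes) was present in 2, 4, 0 and 0 equal-length lists. Its fold enrichment was 3.75 and 3.56 in GM no dox replicates 2 and 4 and 4.91, 3.85, 4.45 and 3.82 in GM +dox. In full lists it was also found at 2.77 in DM no dox replicate 4 and at 3.29, 3.19 and 3.07 in DM +dox. GM +dox ranks of 2528, 6685, 4375 and 7118 stood apart from DM +dox ranks of 14822, 17983 and 17121. A region picked as all or none at the cut must separate by rank in this way. In the left-out DM +dox replicate 1 this region stood at rank 316 and 6.64 fold, so it too was absent from DM +dox only without that library.

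Jun had 1 region at its own start and 3 others. Jun −46.3 kb, with TGACTCA, lay within 1 kb of the start of Junos and was present in 4, 4, 1 and 3 equal-length lists. All 14 full lists had it, at ranks 3850 to 22088. Jund +4.1 kb, at the start of Iqcn, was found in 1, 1, 2 and 3.

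Atf3 +1.7 kb (chr1:191215900-191216795) lay in the first part of the Atf3 gene, in an intron. It was in 0, 3, 3 and 3 equal-length lists, and it was the region higher with differentiation without dox. In full lists GM no dox replicates 2 and 4 had it at ranks 24735 and 15690 and replicates 1 and 3 had none. GM +dox ranked it 10933, 11796, 12868 and 19840, DM no dox 11877, 11268 and 11627 and DM +dox 6691, 11041 and 6550. Fold enrichment was 8.79 and 13.5 in GM no dox, 15.1, 15.5, 12.7 and 8.64 in GM +dox, 9.04, 8.51 and 14.8 in DM no dox and 19.5, 13.5 and 17.7 in DM +dox. By rank every DM library was stronger than every GM no dox library. For DM no dox this follows from picking the region by presence inside the cut. By fold GM no dox and DM no dox overlapped. Atf3 −36.6 kb, with 2 copies of CAGCTG, was in 0, 3, 2 and 3 equal-length lists, and Atf3 −12.6 kb, with TGACTCA, in 4, 2, 1 and 1.

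**Figure D3:**
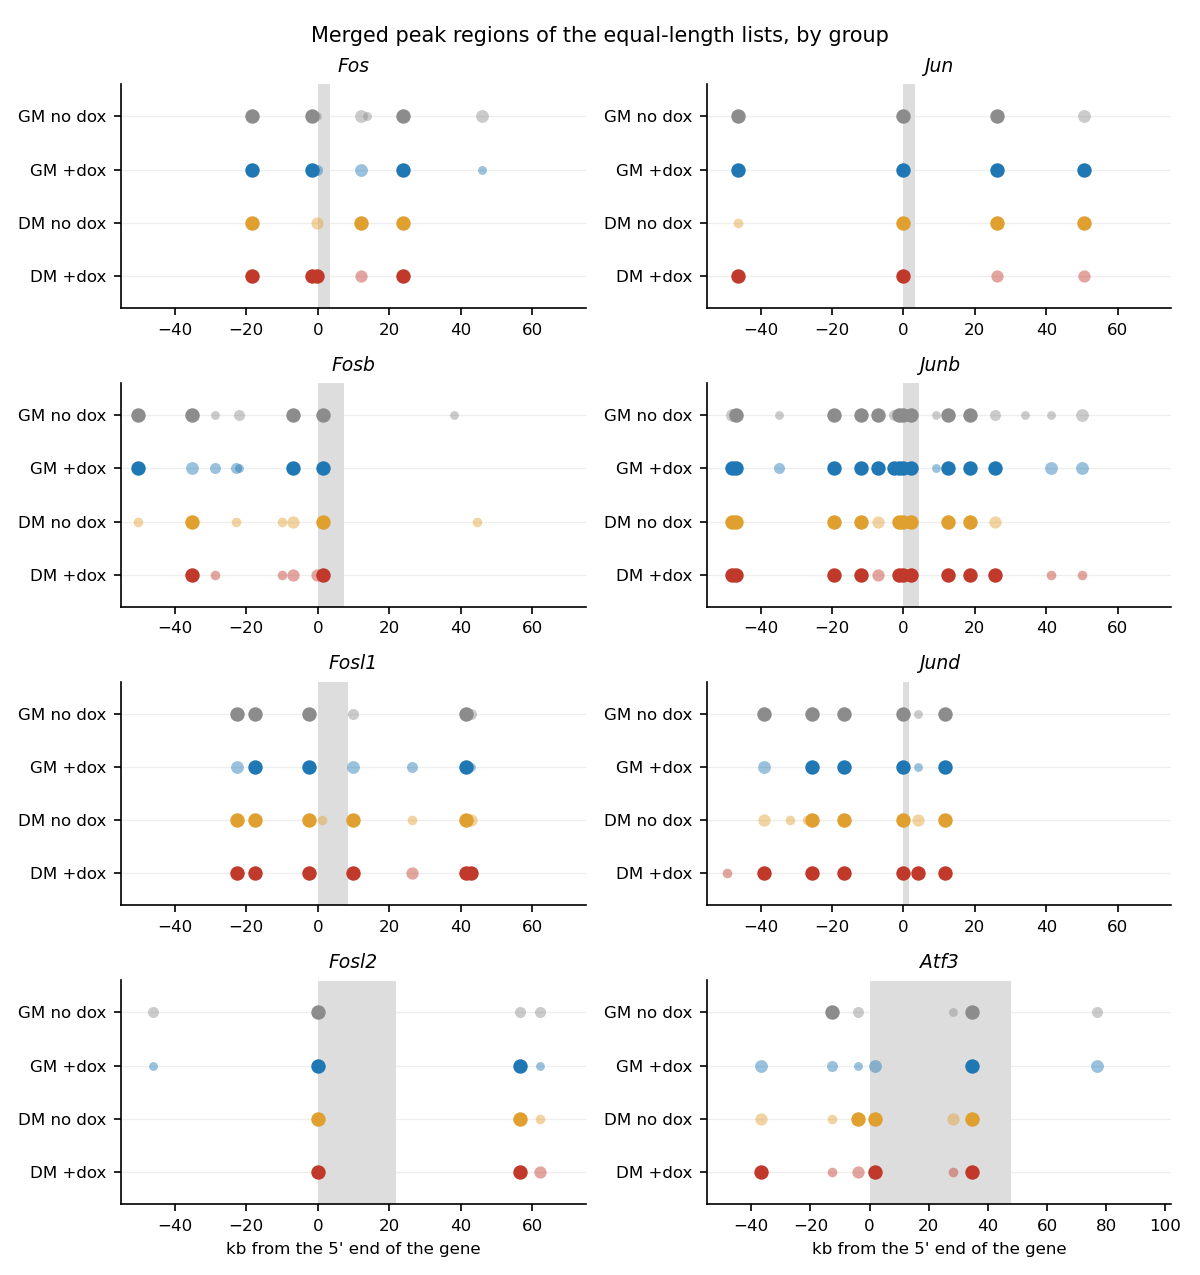
The 67 equal-length regions of the 8 windows, placed by distance from the gene's 5′ end in kb, with 1 row a group and the gene body shaded. Full-colour large marks have a peak in every library of the group and paler, smaller marks in fewer. Fos −1.7 kb lacks a mark in DM no dox, Fosb −50.4 kb in DM +dox, Junb −2.5 kb in both DM groups, and Atf3 +1.7 kb in GM no dox.

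In full lists dox in DM gave 9 all-or-none regions higher among 113 member regions, with 5.37% of all regions higher. They were Fos −43.3, +18.4 and +53.3 kb, Fosb +27.4, +18.6 and −16.5 kb, Junb +34.0 kb and Atf3 +91.9 and +76.8 kb. None of these was all or none at equal length.

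Regions open in every kept library allowed a test of strength. The log2 fold enrichment of 11046 such regions was quantile normalized and fitted with limma, and 30 of them lay in the members' windows. No member region passed an adjusted p of 0.05 in any comparison. Genome-wide, 0 regions (0%) passed with dox in GM, 0 (0%) with dox in DM, 29 (0.263%) with differentiation without dox and 5 (0.0453%) with differentiation with dox. An unadjusted p under 0.05 was found at 674 regions with dox in GM, 741 with dox in DM, 1213 with differentiation without dox and 824 with dox. Of the 30 member regions, 1, 2, 8 and 2 had one in the same order. With the replicate block 0 member regions passed as before, and the genome-wide counts were 0, 9, 130 and 39. The 29 regions of differentiation without dox rested on single libraries, with 0 left without DM no dox replicate 3 and 58 found without GM no dox replicate 4.

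Member differences were centred near the genome-wide median. The 30 regions had a median log2 difference of 0.01 with dox in GM (range −0.31 to 0.33), −0.07 with dox in DM (−0.39 to 0.54), 0.08 with differentiation without dox (−0.47 to 0.58) and 0.05 with differentiation with dox (−0.54 to 0.33). The 7 regions at the members' own starts ranged from −0.16 to 0.25 with dox in GM and from −0.29 to −0.01 with dox in DM. In differentiation without dox the largest of these was Junb +2.2 kb, at 0.56 (SE 0.20, limma adjusted p = 0.253), and Fosb +1.4 kb followed at 0.46 (SE 0.18, limma adjusted p = 0.306). With dox the same regions differed by 0.22 (SE 0.20) and 0.05 (SE 0.18). The interaction of dox and medium passed for 0 of the 30 regions by limma, and 1 had an unadjusted p under 0.05.

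Another measure of strength, the recovered number of fragments at the summit over the genome-wide background, was planned as an alternative and gave a different account of differentiation. By this measure 3 member regions passed in each differentiation comparison and none with dox (0.00905% of all regions in GM and 0% in DM). Without dox 1 was higher and 2 lower, against 0.561% of all regions higher and 1.98% lower. With dox 1 was higher and 2 lower as well, against 0.371% and 2.04%.

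Jund +11.7 kb (chr8:70710215-70711000), in a coding exon of Iqcn, was higher in DM in both. Its fragments over background were 22.1, 133, 24.2 and 72.3 in GM no dox and 118, 94.0 and 152 in DM no dox. They were 149, 151, 47.3 and 60.4 in GM +dox and 374, 167 and 174 in DM +dox. Before normalization these values overlapped between media without dox but not with dox, and the log2 differences were taken after normalization. The log2 difference was 1.19 (SE 0.18, limma adjusted p = 0.0014) without dox and 1.09 (SE 0.18, limma adjusted p = 0.0028) with dox, and 0.58 (SE 0.17, adjusted p = 0.138) and 0.10 (adjusted p = 0.941) on fold enrichment by limma. Its ranks were 9056, 6718, 11903 and 8295 in GM no dox, 4757, 4147, 10636 and 4946 in GM +dox, 904, 562 and 814 in DM no dox and 311, 1241 and 412 in DM +dox. All 6 DM libraries ranked it higher than all 8 GM libraries. By fold enrichment the media overlapped, with up to 17.1 in GM no dox and 19.1 in GM +dox against 13.2 to 16.1 in DM no dox and 16.5 to 20.0 in DM +dox.

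Junb −7.0 kb (chr8:84985284-84986366), with 3 copies of TGACTCA, was lower in DM in both. Its fragments over background were 62.3, 587, 87.7 and 197 in GM no dox and 89.7, 66.6 and 97.6 in DM no dox. They were 358, 390, 155 and 98.7 in GM +dox and 285, 143 and 116 in DM +dox. Before normalization these values overlapped between media. The log2 difference after normalization was −1.09 (SE 0.16, limma adjusted p = 0.0012) without dox and −0.61 (SE 0.16, limma adjusted p = 0.0375) with dox. On fold enrichment it was −0.31 (SE 0.19, adjusted p = 0.568) and 0.02 (adjusted p = 0.987) by limma. Ranks were 3940, 881, 2187 and 5816 in GM no dox and 13233, 11691 and 18227 in DM no dox, which did not overlap. With dox they were 4403, 3746, 3603 and 11701 in GM and 5583, 11976 and 14757 in DM, which did.

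**Figure D4:**
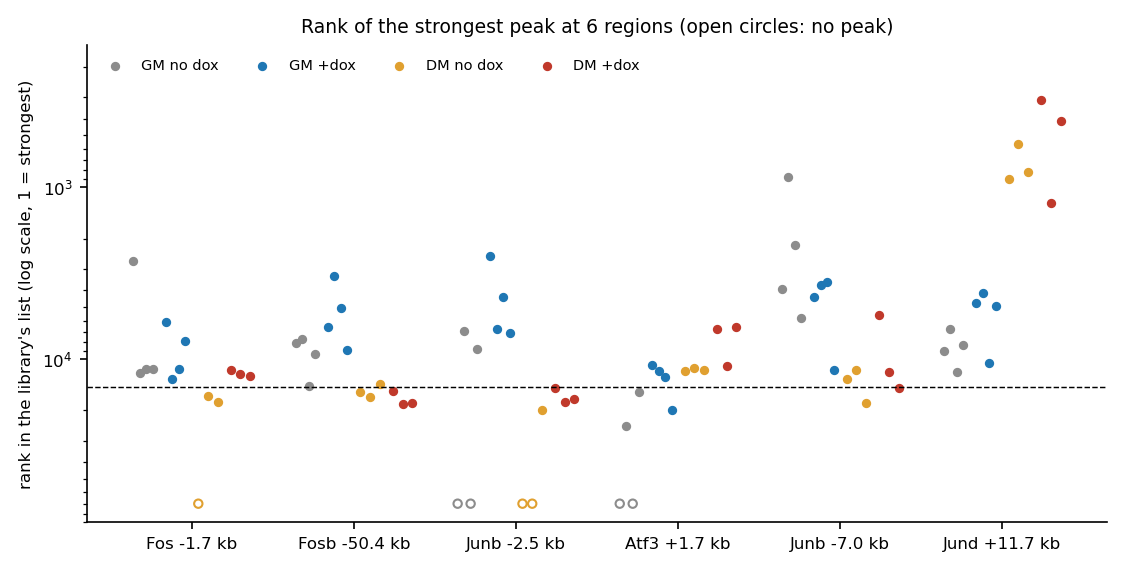
Rank by −log10 p of the named regions in each kept library, 1 point a library coloured by group, on a log axis with strong peaks at the top and the equal-length cut at 14710 as a line. By rank Jund +11.7 kb is stronger in all 6 DM libraries than in the 8 GM libraries, and Fosb −50.4 kb falls near or past the cut in DM.

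The other calls by fragments were lower in DM and each held in 1 comparison. Jun −46.3 kb differed by −1.01 without dox (SE 0.27, limma adjusted p = 0.0474) and by −0.22 with dox (limma adjusted p = 0.718). Fosb −50.4 kb differed by −0.83 with dox (SE 0.21, limma adjusted p = 0.0314) and by −0.40 without dox (limma adjusted p = 0.303). On fold enrichment Jun −46.3 kb differed by −0.47 without dox (SE 0.19, limma adjusted p = 0.321) and Fosb −50.4 kb by −0.54 with dox (SE 0.17, limma adjusted p = 0.296). Neither region was shown to differ between the dox arms, since no interaction passed. None of the 7 regions tested at a member's own start passed by either measure. The starts of Fos and Fosl1 were not among them, as some kept libraries had no peak there.

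**Figure D5:**
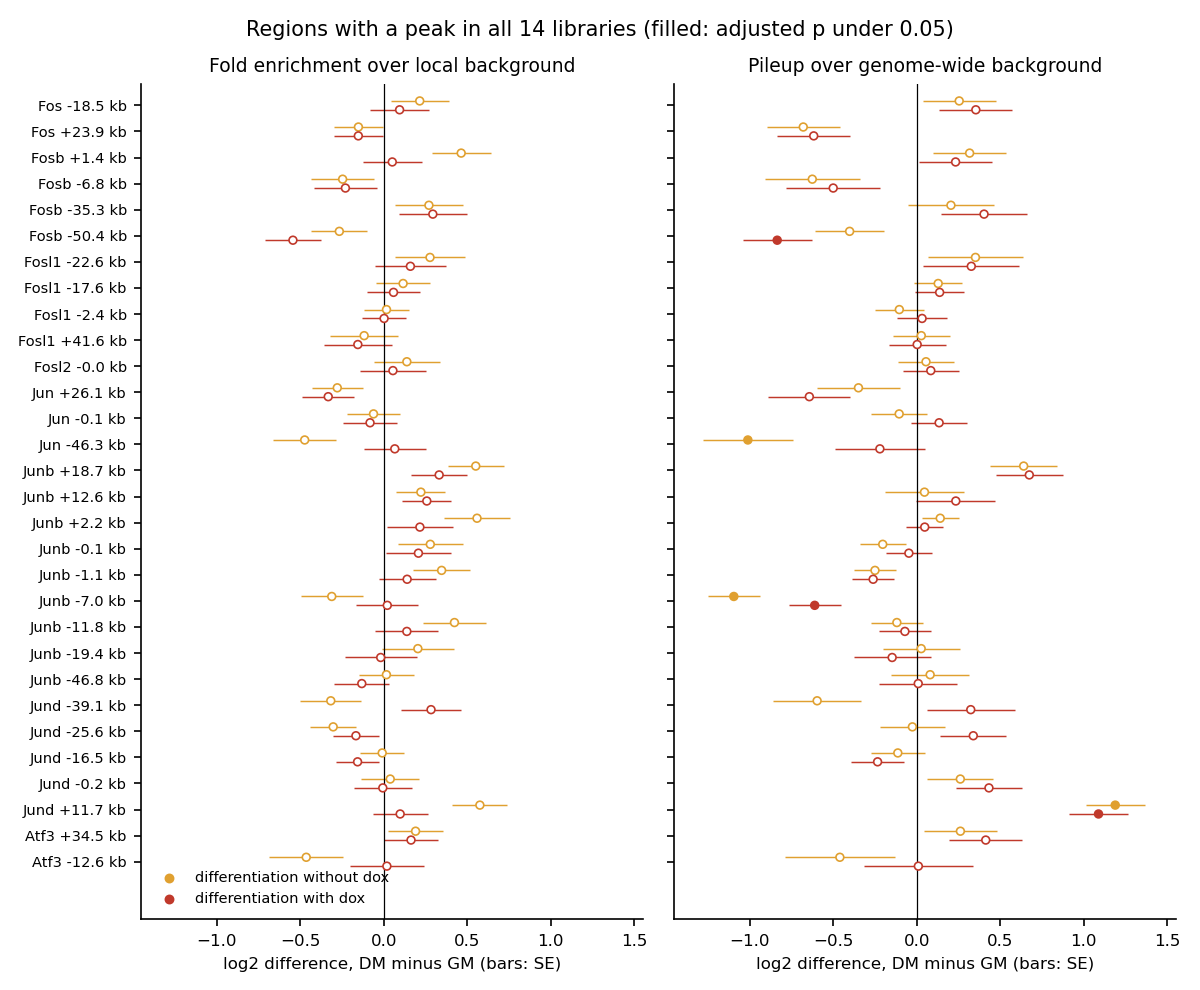
Log2 difference, DM minus GM, of the 30 regions open in every library, without dox and with dox, by fold enrichment over local background and by fragments over genome-wide background. Bars are SE and filled points have a limma adjusted p under 0.05: none on fold enrichment, and 3 in each comparison by fragments.

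Sequence features of the 67 regions were compared with those of all 26213, using 300 bases around the strongest summit. TGACTCA occurred in 20 of the members' regions (29.85%) and in 32.42% of all regions. CAGCTG occurred in 15 (22.39%) and in 24.5%, CATTCC in 8 (11.94%) and in 21.77%, and TGACGTCA in 2 (2.99%) and in 1.74%. The CArG box occurred in 6 (8.96%) and in 1.57% of all regions. Of these 6, 2 lay in the Fos window, 2 in that of Junb and 1 each in those of Fosb and Fosl1. Fos −0.3 kb, Fosb −0.3 kb and Junb +2.2 kb lay at a member's own start, and Fosb −0.3 kb was a peak in only 2 lists. The others were Fos +12.2 kb, between genes, Junb −11.8 kb at a start of Hook2 and Fosl1 +41.6 kb at a start of Mus81. By gene, TGACTCA was in 4 of 7 Atf3 regions and 3 of 4 Fosl2 regions, and in 1 of 7 Fos regions and 3 of 17 Junb regions. CAGCTG was in 4 Junb and 4 Jund regions and in none of the 4 Jun regions.

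Other genes of the pathway were counted in the same way, by peaks per window in equal-length lists. Of 16 partner genes of the basic leucine zipper family, 15 were tested with differentiation without dox and 1 was apart, Nfe2l2, which encodes the oxidative stress factor NRF2, with 4 peaks in each GM no dox library and 5, 7 and 5 in DM no dox. Of 12 kinases and factors upstream of AP-1, Mapk9, which encodes JNK2, had 1 peak in each GM no dox library and 2 in each DM no dox library. Mapk14, which encodes p38α, had 1, 1, 1 and 2 against 3, 3 and 3, and with dox in DM it had 3, 3 and 3 against 1, 1 and 1. Of 10 other immediate early genes, Klf4 was higher in DM no dox, with 0, 1, 1 and 1 peaks in GM and 2, 2 and 2 in DM. Dusp1, which encodes a MAP kinase phosphatase, was lower, with 8, 7, 8 and 8 against 6, 6 and 6. Over all genes 1.47% were apart and higher and 1.43% lower in that comparison, and with dox in DM 0.975% were lower. In full lists 7 of 16 partners, 6 of 12 upstream genes and 7 of 10 immediate early genes were apart and higher with dox in DM, against 29% of all genes. At equal length no listed gene was apart with dox in GM or with differentiation with dox, and no exact permutation p of these genes passed after adjustment over all genes.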

How the data were processed

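ATAC-seq reads of 16 libraries were processed by the authors with nf-core/atacseq against mm10, with blacklisted regions removed and narrow peaks called by MACS2 in each library separately (the MACS2 version is not given in the sources used here). The deposited lists give per peak a score, a ratio (fold enrichment over local background), and the −log10 of p and q, the lowest −log10 q being 1.3. Those columns were used as deposited. Fragment pileup and genome-wide background were recovered from fold and p, and at least 94.8% of pileups with −log10 p under 30 came out whole within 0.05. No pair of the 120 pairs of lists was identical, and 0 peaks ran past the ends of 21 GRCm38 chromosomes. Genes came from GENCODE M21. Overlapping peaks of the 14 kept libraries were merged. Groups followed the labels, and nothing beyond the words biological replicate describes the cultures. All 8 members and the gene lists were chosen with earlier results of these data known, and regions were named where they passed the limma test or were all or none. Regions named by counts alone, and those called by fragments over background, were chosen after their values were seen.

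Log2 fold enrichment of 11046 regions was quantile normalized and fitted with limma 3.58.1 (R 4.3.3, trend, 4 groups in 1 fit, Benjamini-Hochberg). Peaks per window of each protein-coding gene were compared by two-sided exact permutation tests with Benjamini-Hochberg adjustment in Python 3.11.15 (pandas 2.3.3, numpy 2.4.6, scipy 1.17.1, pysam 0.24.0, matplotlib 3.10.9). Tested on simulated data for dox in GM over 11046 regions, the fit found 33% of 100 regions changed by 0.5 and 99% of 100 changed by 1 on the log2 scale, with 7 false calls. Deviations from group means of same-numbered libraries correlated at 0.106 to 0.465. The numbers were taken to pair libraries only in the replicate block and the paired comparison, while the main fit and the main permutation tests were unpaired. Libraries of different numbers were not set against these correlations. Alternatives were equal-length lists, median centring, fragments over background, rank scores, all 16 libraries, the replicate block, replicate numbers as a term, each library left out, full or shorter lists, a cut by fold enrichment and a 10 kb window. The fit of numbers 3 and 4 alone was chosen after seeing the data. Depth beyond the recovered background is unknown, and intervals from peak lists were not computed. A marker of another cell type is not reported here.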

Additional observations from a re-analysis of the deposited data

Results flagged for a closer look

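In 3 windows of the equal-length lists a GM no dox library held a number of peaks far from the other 3: replicate 4 had 4 at Fosl2 where the others had 2, and replicate 1 had 4 at Jun and 6 at Jund where the others had 5. In full lists replicate 1 of GM +dox had 17 peaks at Fosl1 where the others had 13. In each case the other 3 libraries were tied, and the gap was 1 peak at Jun and Jund. In all, 40 groups of 4 were examined and 4 stood out, while chance marks about 1 in 20 groups of continuous values. With tied counts a gap of 1 peak is enough, and the chance rate for such counts was not computed. No interaction of dox and medium passed the limma test among the members' regions (0 of 30).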

How the results depend on the processing

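With the replicate block, the limma fit called 0 member regions in each of the 4 comparisons, and peaks per window moved one way in every pair at 2 members higher and 2 lower with differentiation without dox and at 1 lower with dox. It changed no other call of a member, while genome-wide limma calls went from 0 to 9 with dox in DM, from 29 to 130 with differentiation without dox and from 5 to 39 with dox. Limma calls among the 30 member regions numbered 0 by fold enrichment, but with differentiation without dox 3 by fragments over background and 2 by rank score, and with dox 3 and 1. Junb −7.0 kb turned from 0.02 to −0.61 by fragments with dox. Genome-wide, 5 regions were called for differentiation with dox, against 28 with median centring, 114 by rank score, 266 by fragments and 0 in equal-length lists or with all 16 libraries. Without dox the 29 became 53, 120, 281, 2 and 0 in that order. Leaving out each library gave 0 to 58 without dox and 2 to 12 with dox.

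Members apart in peaks per window numbered 0 at equal length. For dox in DM, 3 were higher in full lists, where Atf3 turned to 7.33 peaks higher, and 2 with numbers 3 and 4 only (6.85% of all genes), and 1 was lower with lists cut by fold (Fosl1, −3.33, 1.75% of all genes). For differentiation without dox, 1 was higher at shorter length (1.07% of all genes), 1 with the 10 kb window (1.1%), and 3 with numbers 3 and 4 (7.23%), where 1 was lower (6.11%). With dox, 1 was higher at shorter length (1.31%), 1 was lower with the 10 kb window (0.933%), and numbers 3 and 4 gave 1 each way (8.24% higher and 6.08% lower). Leaving out each library gave 0 to 2 higher for dox in DM (2 without DM +dox replicate 2, 5.02% of all genes). For differentiation without dox it gave 0 to 1 higher, 1 without DM no dox replicate 2 (4.28%) or 4 (2.69%). It gave 0 to 2 lower, 1 without GM no dox replicate 1 (2.36%) or 4 (2.37%) and 2 without replicate 3 (2.05%). With dox it gave 0 to 1 each way, 1 without GM +dox replicate 2 in both directions (2.49% higher and 1.94% lower). It also gave 1 lower without DM +dox replicate 3 (1.8%) or 4 (2.36%).

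All-or-none member regions in full lists numbered 2 of 116 higher with dox in GM, against 310 of 69455 over all regions. With dox in DM 9 of 113 were higher, against 3410 of 63484. Differentiation without dox gave 0 higher and 2 lower of 107, against 118 higher and 118 lower of 57467. With dox it gave 1 higher and 1 lower of 125, against 1121 higher and 240 lower of 75263. Cut by fold, dox in DM gave 0 higher and 2 lower of 47, against 244 higher and 224 lower of 23186. Differentiation without dox gave 0 higher of 62, against 206 of 25461, and with dox 1 lower of 47, against 217 of 24114. Leaving out each library gave 0 to 1 higher with dox in GM (1 without GM +dox replicate 3 or 4), against 38 to 100 over all regions. With dox in DM it gave 1 to 2 higher, against 177 to 395. Differentiation without dox gave 1 to 2 higher and 1 to 3 lower, against 233 to 565 and 247 to 493. With dox it gave 0 to 1 higher (1 without GM +dox replicate 2 or 3 or DM +dox replicate 2), against 249 to 561. The cause of these shifts was not tested. Of 672 window differences recomputed, 57 changed sign while apart in neither setting. Peak lists cut at a q threshold set what can be seen: a region without a peak may be open below the threshold.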
